A study of Homo sapiens with 12 samples.

Results

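Aminoacyl-tRNA synthetases are the enzymes that attach each amino acid to its own tRNA, the step that precedes every peptide bond. Human cells hold separate sets of them for the cytosol and for the mitochondrion, most of them encoded by separate nuclear genes, whereas GARS and KARS supply both compartments. Several cytosolic synthetases are held in a multi-synthetase complex by the scaffold proteins AIMP1 and AIMP2. Many cytosolic synthetase genes are known targets of ATF4, the transcription factor that is translated when eIF2 alpha is phosphorylated during amino acid shortage or endoplasmic reticulum stress. The genes were chosen by name: 20 synthetase genes of the cytosolic set, 16 of the mitochondrial set, and AIMP1 and AIMP2, together 38 of the 57736 genes in the files. The files carry the older symbols (CARS for the gene now named CARS1, and likewise for the other cytosolic enzymes), which are used throughout.

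The expression of these genes was measured in 2 human cancer cell lines, HepG2 from liver and Ls174 from colon, both labelled wild type (WT) and kept in DMEM with fetal bovine serum. Cells of each line were left untreated (control) or received HME, a methanol extract of the red seaweed Hypnea musciformis, for 24 h at a concentration labelled as the IC50, given as 0.7 mg/ml in the sample labels and 0.78 mg/ml in the study's methods. Each of the 4 groups had 3 libraries, described as biological triplicates. HME is a mixture of compounds, and the controls are labelled as having no treatment. The study's methods do not state whether serum was present while the sequenced cells received HME. In its proliferation, apoptosis and mitochondrial membrane potential assays HME was given without serum. The libraries were made with a 3′ mRNA kit, in which a transcript gives reads only near its poly(A) tail, so levels of different genes can be set side by side without dividing by length.

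The libraries held between 1790841 and 3656662 counts, and the members had mean counts of 18.6 to 685 per library. Levels are given as CPM (counts of a gene per megacount of its library, after TMM scaling of the 12 libraries), and a count of 3, taken as the floor, equals at most 1.86 CPM. HepG2 control 2 and Ls174 control 1 stood apart from their replicates, with correlations across genes of 0.87 to 0.871 and 0.876 to 0.881 to the other controls, against 0.957 and 0.977 between those others. Of the 10 liver markers, summed levels were 28200 to 31400 CPM in HepG2 control and 20800 to 23400 CPM in HepG2 HME libraries. They were 0.309 to 150 CPM in Ls174 control and 1.06 to 87.6 CPM in Ls174 HME libraries, and the cause of this spread was not tested. The 10 colon markers summed to 504 to 633 CPM in Ls174 and 71.2 to 209 CPM in HepG2 libraries. KRT20 was at 0 in Ls174 control cells. Markers of mesenchymal, blood and endothelial cells (10 of 11 in the files) summed to 97.8 to 560 CPM in HepG2 control and 439 to 1350 CPM in HepG2 HME libraries, with PTPRC and HBB at 0 in both, and to at most 8.91 CPM in Ls174 libraries. Their part in the HepG2 results was not tested.

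The promoters of the members were searched for the C/EBP-ATF response element, TGATGNAA or its reverse complement TTNCATCA, through which ATF4 is known to act; this search was chosen after the values of the members had been seen. In the RefSeq table (GRCh38.p14, 250 bases before to 50 after each start, both strands) the motif occurred in 3.62% of 35116 promoters and in 4.46% of 27305 genes. A promoter entry was found for 32 members. The motif was present in 7 of 16 cytosolic members with an entry (43.8%), in 1 of 14 mitochondrial members (7.14%) and in neither scaffold gene. The windows of 30 bases are shown because all 5 members called higher in HepG2 cells are among them; each is written 5′ to 3′ on the strand of the gene, with the motif in capitals.
CARS (chr11:3057407-3057436, minus strand): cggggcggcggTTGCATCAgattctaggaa
GARS (chr7:30594834-30594863, plus strand): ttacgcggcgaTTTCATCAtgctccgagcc
MARS (chr12:57488053-57488082, plus strand): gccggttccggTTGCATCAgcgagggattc
TARS (chr5:33440956-33440985, plus strand): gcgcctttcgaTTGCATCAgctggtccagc
IARS (chr9:92293692-92293721, minus strand): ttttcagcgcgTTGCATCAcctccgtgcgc
NARS (chr18:57621804-57621833, minus strand): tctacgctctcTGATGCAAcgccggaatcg
AARS (chr16:70289675-70289704, minus strand): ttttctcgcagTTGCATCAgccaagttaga
YARS2 (chr12:32756076-32756105, minus strand): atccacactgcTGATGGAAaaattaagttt
In CARS, MARS, TARS, IARS, GARS and NARS the motif began between 33 bases before and 14 bases after the start of the transcript, and in AARS and YARS2 it began 187 and 197 bases before it. CARS, GARS and TARS each had 2 promoter entries, and the motif was present in only 1 of them. A match describes the letters only, and DARS, LARS, VARS, YARS, AARS2 and VARS2 had no entry.

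Across the 12 libraries the cytosolic genes had mean levels of 20.6 CPM (HARS) to 269 CPM (DARS), with a median of 100 CPM, and the mitochondrial genes 6.49 CPM (PARS2) to 129 CPM (IARS2), with a median of 27.6 CPM. By the mean of all 12 libraries, the 3 most abundant cytosolic members were DARS, QARS and KARS, which charge aspartate, glutamine and lysine. QARS averaged 272 ± 71.1 CPM in HepG2 control and 260 ± 14.8 CPM in Ls174 control cells, and KARS 238 ± 56.7 and 221 ± 106 CPM (SD, n = 3), so neither differed between the lines beyond its spread. DARS owed its place to HepG2 cells: its mean was 115 CPM in Ls174 control cells, below IARS (151), AARS (147), NARS (135) and TARS (118 CPM). By the same mean, the 3 most abundant mitochondrial members were IARS2, HARS2 and VARS2, for isoleucine, histidine and valine, at 113 ± 36.3, 26 ± 6.44 and 79.3 ± 72.2 CPM in HepG2 control cells and 181 ± 21.2, 50.7 ± 4.81 and 32.2 ± 28.8 CPM in Ls174 control cells (SD, n = 3). Without HepG2 control 2 the mean of VARS2 over the other 11 libraries was 28.5 CPM, below LARS2 (30.6), YARS2 (30.2) and CARS2 (28.6 CPM).

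Untreated Ls174 and HepG2 cells differed in 12 of the 38 members by edgeR's quasi-likelihood test, at an unadjusted p under 0.05 and a log2 change of over 0.58 in either direction, and "called" means this below. The study's methods set the same limits on a binomial test, which is an alternative here. Of these, 7 were higher in Ls174 cells, against 15.4% of all 11907 tested genes, and 5 were lower, against 19.5%. At a Benjamini-Hochberg adjusted p under 0.05, 6 members passed, against 23.5% of all genes. DARS, the most abundant member in HepG2 cells, stood at 305, 679 and 506 CPM in the HepG2 controls and at 59.1, 120 and 166 CPM in the Ls174 controls, a log2 difference of −2.16 ± 0.49 (SE). Every HepG2 control lay above every Ls174 control. The other members with a lower adjusted level in Ls174 cells were mitochondrial. They were AARS2 (log2 −2.97 ± 0.82), RARS2 (−2.68 ± 0.45), CARS2 (−1.42 ± 0.38) and EARS2 (−1.34 ± 0.37). AARS2 had 1, 2 and 16 counts in the Ls174 controls. The counts of 1 and 2 lie below the floor of 3, so the size of its difference is uncertain. MARS2, which charges the mitochondrial methionine tRNA, was higher in Ls174 cells (1.46 ± 0.45; edgeR adjusted p = 0.0443). The 6 other members called higher in Ls174 cells were EPRS, TARS, CARS, IARS, HARS2 and YARS2, at log2 differences of 1.10, 1.06, 0.80, 0.79, 0.93 and 0.96. The 5 members called lower were also called lower when any 1 of the 6 libraries was left out. No member was called higher without Ls174 control 2, and 2 were without HepG2 control 3 or without Ls174 control 3.

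In HepG2 cells HME was followed by higher counts of 4 cytosolic synthetases, GARS, CARS, MARS and TARS, and of the mitochondrial YARS2, and by lower counts of the mitochondrial RARS2 and VARS2. Of the 20 cytosolic members, 4 were called higher and 0 lower, against 11.3% and 10.9% of all 11343 tested genes. Of the 14 mitochondrial members tested (PARS2 and TARS2 did not pass the filter on low counts), 1 was called higher and 2 lower. The median log2 fold change was 0.39 in the cytosolic set, with 14 of 20 above 0, and −0.43 in the mitochondrial set, with 6 of 14 above 0, beside −0.04 over all genes, of which 47.7% were above 0. No member passed an adjusted p under 0.05 in edgeR, against 3.31% of all genes, and 7 had an unadjusted p under 0.05. By DESeq2, 3 members passed it (CARS, GARS and RARS2), against 9.11% of all genes. In RNA from bulk cultures, a shift in the mix of cells and a change of RNA per cell cannot be told apart. Treated and control libraries were fully separated in 5 cytosolic members, all higher with HME, and in 3 mitochondrial members (YARS2 higher, RARS2 and SARS2 lower), against 30.8% of all genes.

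GARS, the glycine enzyme of both compartments, had 60.4, 40.2 and 54.2 CPM in the HepG2 controls and 104, 290 and 75.2 CPM with HME. The groups did not overlap, but HME 2 was far above the other treated libraries. The log2 fold change was 1.61 ± 0.49 (SE; edgeR adjusted p = 0.103), and without HME 2 it was 0.83 and was not called. Its largest 3′ region (chr7:30673477-30673846, plus strand, GRCh37) held 92.2% of its counts and lay in the UTR and just past the annotated end of the gene.

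CARS, which charges cysteine, had 42.2, 58.8 and 43.8 CPM in the HepG2 controls and 107, 99.7 and 101 CPM with HME. All treated libraries stood above all controls, close to each other, and the log2 fold change was 1.09 ± 0.31 (edgeR adjusted p = 0.0838). MARS, which charges methionine for elongation and for the start of translation, had 64.7, 35.3 and 73.1 CPM in the controls and 122, 127 and 83 CPM with HME (0.96 ± 0.35; adjusted p = 0.154). TARS, for threonine, had 74.6, 45.2 and 47 CPM in the controls and 97.9, 131 and 83.6 CPM with HME (0.92 ± 0.33; adjusted p = 0.152). For both, the lowest treated library lay only slightly above the highest control.

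The other 16 cytosolic members were not called in HepG2 cells, at log2 fold changes of −0.64 (DARS) to 0.56 (HARS). YARS, for tyrosine, was the only one of these 16 whose groups did not overlap (57.7, 71.2 and 72.3 CPM in the controls against 99.9, 96.2 and 84.2 CPM with HME; log2 0.49 ± 0.29). QARS and KARS stayed within the spread of their controls, with log2 fold changes of −0.08 ± 0.32 and −0.002 ± 0.32. DARS had 358, 325 and 275 CPM with HME, within the range of its controls except for HME 3.

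Among the mitochondrial members, RARS2, which charges arginine, fell from 48.4, 62.5 and 50.2 CPM in the HepG2 controls to 27.1, 27.4 and 19.1 CPM with HME. Every treated library lay below every control, and the log2 fold change was −1.12 ± 0.32 (edgeR adjusted p = 0.0851). YARS2, the tyrosine enzyme of the mitochondrion and the only mitochondrial member with the promoter motif among the 14 with an entry, rose from 22.7, 11.1 and 11.6 CPM to 29.1, 32.3 and 31 CPM (1.02 ± 0.36; adjusted p = 0.144). VARS2 had 31, 162 and 44.6 CPM in the controls and 36.6, 25.3 and 32.8 CPM with HME. Its call (−1.35 ± 0.60; edgeR adjusted p = 0.222) rested on HepG2 control 2, without which the log2 fold change was −0.19. IARS2 had 144, 122 and 73.1 CPM in the controls and 42.9, 99 and 87.8 CPM with HME, overlapping groups with a log2 fold change of −0.56 ± 0.41, and HARS2 was at 0.13 ± 0.32.

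Without HepG2 control 2, the library that stood apart, 7 cytosolic members were called higher (SARS, FARSA and YARS joined GARS, CARS, MARS and TARS) and 0 lower, against 14.1% and 10.1% of all genes. YARS2 was then the 1 mitochondrial member called higher and RARS2 the 1 called lower, and CARS passed an adjusted p under 0.05 in edgeR (log2 1.32 ± 0.23, adjusted p = 0.00937), against 7.74% of all genes. The medians without it were 0.24 and −0.22 in the cytosolic and mitochondrial sets. Without HME 2, in turn, CARS and RARS2 were the 2 members still called, against 15.2% of all genes. Scaling by library size alone in place of TMM moved the median of all genes from −0.04 to −0.20 and the calls of all genes from 1282 higher and 1235 lower to 861 and 1729. The medians of the cytosolic and mitochondrial sets then were 0.19 and −0.58, and GARS and CARS were called higher and RARS2 and VARS2 lower.

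In Ls174 cells the cytosolic genes MARS, GARS, WARS and CARS and the scaffold gene AIMP2 were higher with HME, and no member was called lower. The 5 calls were against 4.11% of all 11319 tested genes called higher and 7.85% called lower. All 38 members were tested. The median log2 fold change was 0.41 in the cytosolic set, with 16 of 20 above 0, and 0.39 in the mitochondrial set, with 12 of 16 above 0, beside −0.003 over all genes, of which 49.9% were above 0. The groups did not overlap in 12 cytosolic members, 11 higher with HME and QARS lower, in 5 mitochondrial members, all higher, and in AIMP2, against 23.8% of all genes. None of the 16 mitochondrial members was called in edgeR or DESeq2, and none had an unadjusted p under 0.05 in edgeR. An adjusted p under 0.05 was reached by 1 member in edgeR, WARS, against 1.18% of all genes, and by 5 members in DESeq2 (WARS, MARS, GARS, CARS and AIMP2), against 3.83%.

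**Figure D1:**
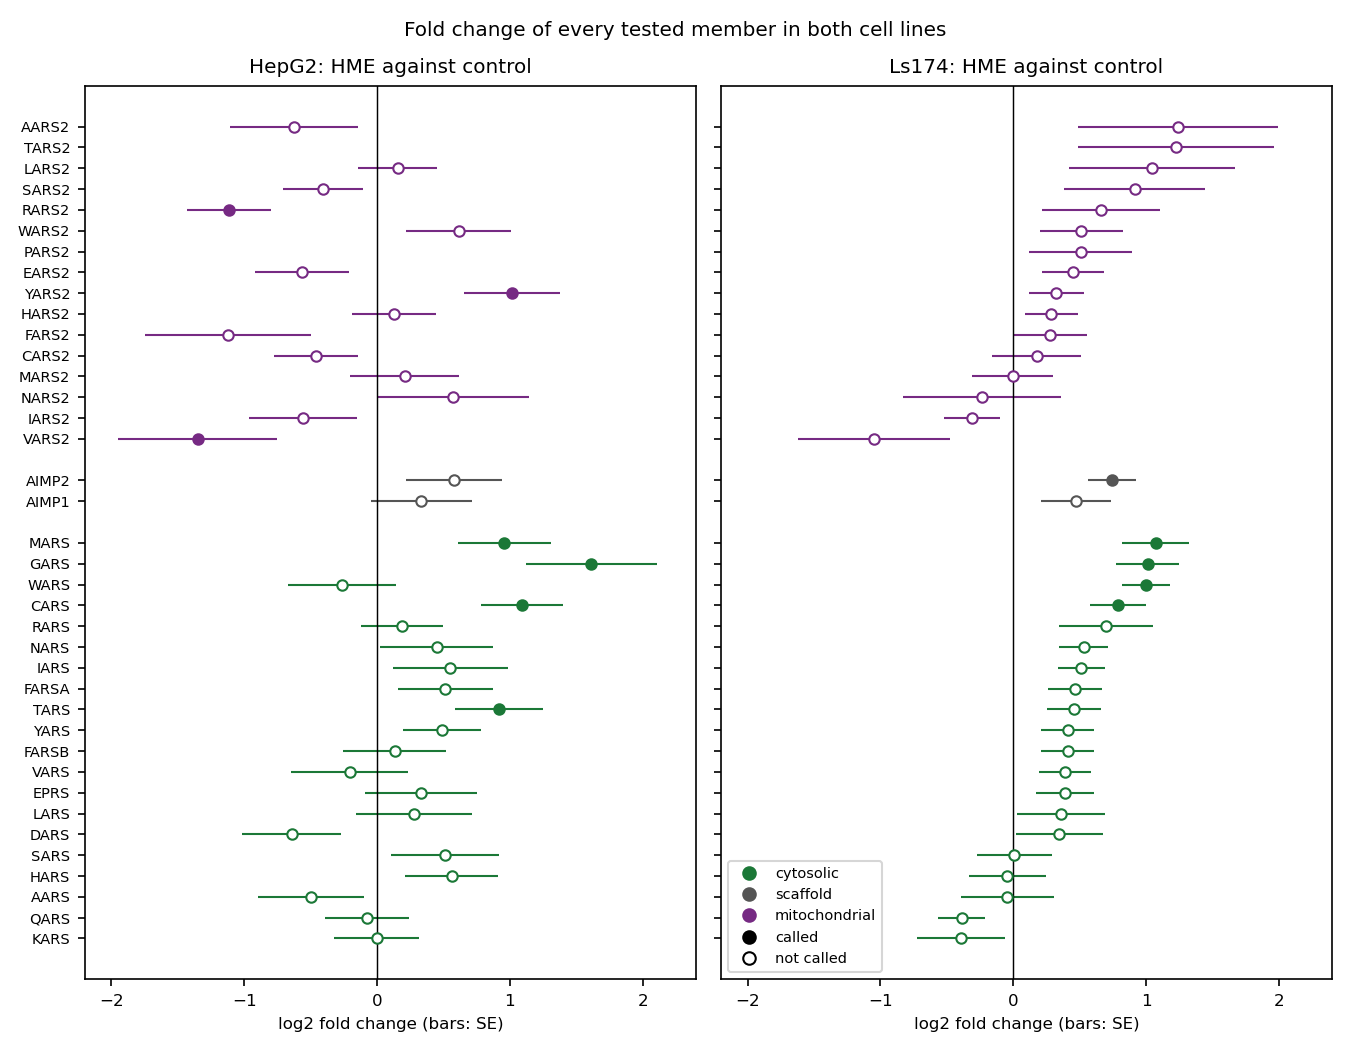
Log2 fold change of HME against control for every tested member in HepG2 cells (left) and Ls174 cells (right); points are edgeR estimates, bars their SE, and filled points are members called at p under 0.05 and beyond 0.58. Most cytosolic points lie right of 0 in both lines, whereas the mitochondrial points lie on both sides in HepG2 cells (6 of 14 above 0) and mostly right of 0 in Ls174 cells (12 of 16 above 0), without a call.

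WARS, the tryptophan enzyme and a gene also known to be induced by interferon gamma, had 89.4, 101 and 92.6 CPM in the Ls174 controls and 209, 177 and 184 CPM with HME. The log2 fold change was 1.00 ± 0.18 (edgeR adjusted p = 0.042). The edgeR adjusted p was 0.0567 with library-size scaling, 0.199 with the replicate block and 0.209 in 1 fit of all 12 libraries. It was 0.157 to 0.274 when any 1 library other than Ls174 control 1 was left out. The adjusted call was thus lost in each of these settings. Of all genes, 0 passed with the replicate block or without any 1 HME library, against 134 in the main fit. Without control 2 it was 2 genes, and without control 3 it was 10. With library-size scaling 137 passed, and in the fit of 12 libraries 100. In HepG2 cells WARS had 75.6, 147 and 76.3 CPM in the controls and 68, 118 and 64.5 CPM with HME, overlapping groups with a log2 fold change of −0.26 ± 0.41, which turned to 0.21 ± 0.30 without HepG2 control 2.

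MARS had 43, 49.1 and 59.5 CPM in the Ls174 controls and 76, 129 and 116 CPM with HME, a log2 fold change of 1.07 ± 0.25 (edgeR adjusted p = 0.101). GARS had 56.2, 43.8 and 45 CPM in the controls and 76.8, 92.9 and 123 CPM with HME (1.01 ± 0.24; adjusted p = 0.105). CARS had 70.9, 96.3 and 92.1 CPM in the controls and 176, 145 and 129 CPM with HME (0.79 ± 0.21; adjusted p = 0.144). In these 3 genes every treated Ls174 library lay above every control, as in HepG2 cells, and no other member was called higher in both lines. TARS, called in HepG2 cells, had 95.3, 136 and 124 CPM in the Ls174 controls and 143, 178 and 169 CPM with HME, also without overlap (0.46 ± 0.21) but past neither limit of a call. YARS2 likewise had 32.7, 32.1 and 26.5 CPM in the Ls174 controls and 37.7, 37.5 and 39.5 CPM with HME (0.33 ± 0.21).

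AIMP2 had 79.7, 91.6 and 98 CPM in the Ls174 controls and 151, 157 and 145 CPM with HME (log2 0.74 ± 0.18; edgeR adjusted p = 0.109). In HepG2 cells its values overlapped, at 102, 40.2 and 78.7 CPM in the controls and 96, 127 and 102 CPM with HME (0.58 ± 0.36). AIMP1 was not called in either line (0.33 ± 0.38 in HepG2 and 0.47 ± 0.26 in Ls174 cells). Among the 8 cytosolic synthetases of the multi-synthetase complex (EPRS, IARS, LARS, MARS, QARS, RARS, KARS and DARS) the median log2 fold change was 0.23 in HepG2 and 0.37 in Ls174 cells, with MARS the only call in each. Among the 12 outside it the medians were 0.50 and 0.43, with 3 calls in each line.

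The 16 cytosolic members not called in Ls174 cells had log2 fold changes of −0.39 (KARS) to 0.70 (RARS). Of the most abundant members, QARS had 276, 246 and 258 CPM in the controls and 191, 209 and 200 CPM with HME (−0.39 ± 0.18), so all treated libraries were below all controls. KARS and DARS overlapped between the groups (−0.39 ± 0.33 and 0.35 ± 0.33). KARS had 343, 172 and 150 CPM in the controls, and without control 1 its log2 fold change turned to 0.09 ± 0.18. The mitochondrial members ranged from −1.05 (VARS2) to 1.24 (AARS2). Ls174 control 1 was the lowest of the 3 controls in AARS2, LARS2, SARS2, TARS2, RARS2, NARS2, CARS2, IARS2, EARS2, WARS2 and MARS2. In LARS2, for leucine, the Ls174 controls had 1.47, 22.8 and 22.9 CPM and the treated libraries 30.8, 35.3 and 34.6 CPM. In TARS2, for threonine, control 1 had no count, and the other controls had 10.8 and 12 CPM against 17.4, 19.8 and 18.9 CPM with HME. VARS2 showed the opposite pattern, with 65.5 CPM in control 1 and 17 and 14.2 CPM in the other controls. IARS2 and HARS2 overlapped between the groups (−0.31 ± 0.21 and 0.29 ± 0.20).

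Without Ls174 control 1, the library that stood apart, 6 members were called higher (the 5 above and TARS2, log2 0.72 ± 0.25) and 0 lower, against 6.40% and 9.23% of all genes. An adjusted p under 0.05 in edgeR was then reached by 7 members, against 8.39% of all genes. These were WARS (adjusted p = 0.00158), GARS (0.00191), MARS (0.00896), AIMP2 (0.016), CARS (0.0265), YARS (0.0412) and NARS (0.043), all higher with HME. The medians of the cytosolic and mitochondrial sets were 0.42 and 0.39.

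**Figure D2:**
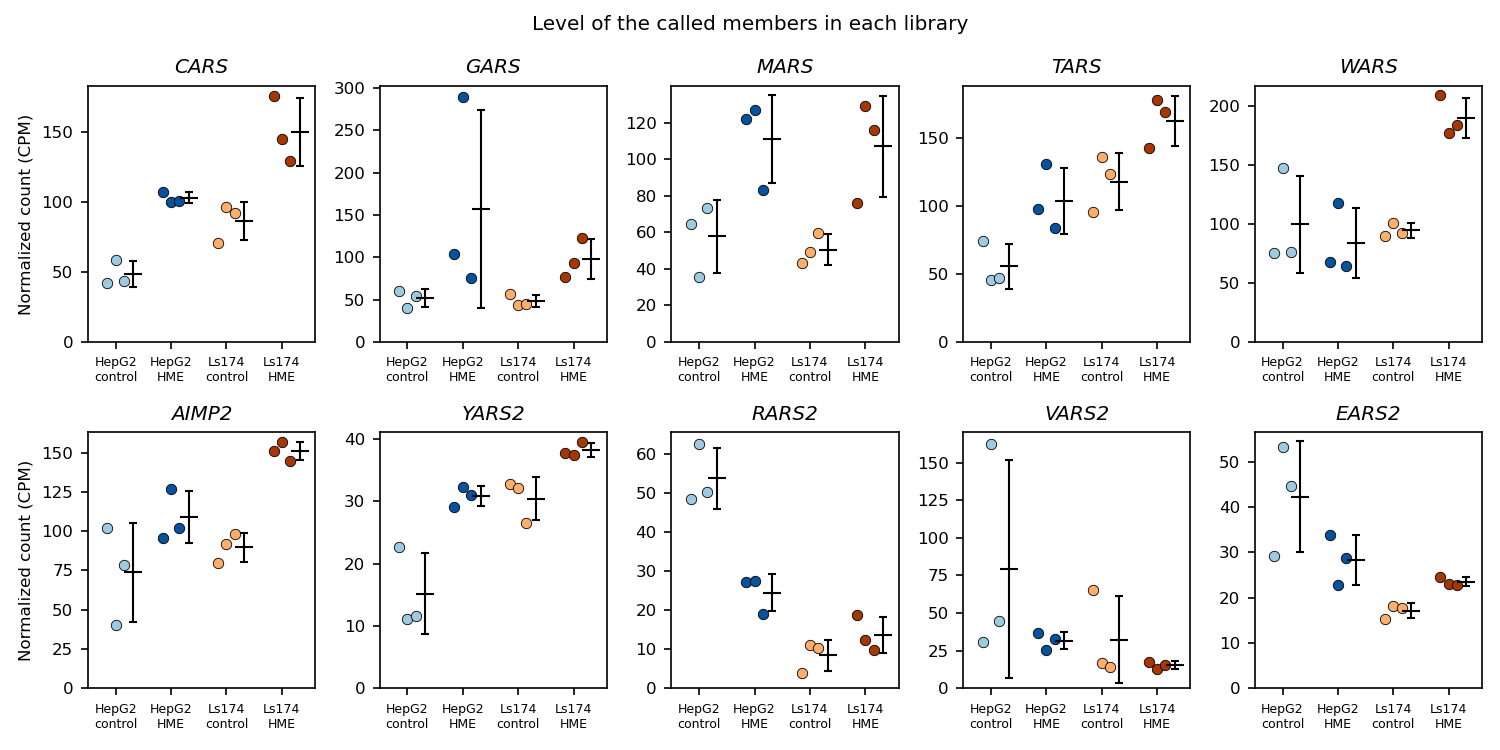
Normalized count (CPM, linear axis from 0, own scale in each panel) of the 10 members called in HepG2 cells, in Ls174 cells or in the difference between the lines; points are libraries 1 to 3 from left to right, and the bar beside them is the mean ± SD of 3. CARS, GARS and MARS are higher with HME in both lines without overlap, WARS is so in Ls174 cells, and the single high control of VARS2 in HepG2 cells is at 162 CPM.

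The difference between the responses of the lines was tested as the interaction of line and treatment over all 12 libraries. Of the 38 members, 3 were called, against 13.2% of all 13040 genes called either way, and all had the higher log2 fold change in Ls174 cells. None passed an adjusted p under 0.05 in edgeR, against 0.644% of all genes, and 3 had an unadjusted p under 0.05. By DESeq2, 1 member passed it (RARS2), against 2.91% of all genes. In RARS2 the difference was 1.78 ± 0.53 (edgeR adjusted p = 0.159). Its Ls174 levels were 3.91, 11.1 and 10.2 CPM in the controls and 18.8, 12.4 and 9.8 CPM with HME, overlapping and all below the treated HepG2 libraries. In WARS the difference was 1.25 ± 0.45 (adjusted p = 0.234). In EARS2, the mitochondrial glutamate enzyme, it was 1.02 ± 0.42 (adjusted p = 0.301). EARS2 had 29.1, 53.3 and 44.6 CPM in the HepG2 controls, 33.8, 22.8 and 28.7 CPM in treated HepG2 cells, 15.2, 18.2 and 17.8 CPM in the Ls174 controls and 24.6, 23 and 22.9 CPM in treated Ls174 cells. The groups thus overlapped in HepG2 cells and did not in Ls174 cells. The median difference was 0.79 in the mitochondrial set and 0.04 in the cytosolic set, beside 0.04 over all genes. For CARS, GARS and MARS the differences were −0.30 ± 0.35, −0.58 ± 0.58 and 0.14 ± 0.45. RARS2 and EARS2 were also among the members lower in untreated Ls174 cells, and that comparison and this one share the control libraries.

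Gene by gene, 13 of the 20 cytosolic members were above 0 in both lines and 3 below 0 in both. Of the 14 mitochondrial members tested in both lines, 4 were above 0 in both, and 6 were below 0 in HepG2 and above 0 in Ls174 cells. Across genes, which are not independent replicates, the log2 fold changes of both lines correlated at 0.47 in the cytosolic set (n = 20). The correlation was 0.15 in the mitochondrial set (n = 14) and 0.28 over all genes tested in both (n = 9871). The lines have separate controls, but HepG2 control 2 and Ls174 control 1 deviated from their group means together. Across genes these deviations correlated at 0.347, against −0.313 and −0.281 for HepG2 control 2 with Ls174 controls 2 and 3. Their part in the agreement of the lines was not tested.

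Summed over its 20 genes, the cytosolic set took 1850, 2340 and 2210 CPM in the HepG2 controls and 2330, 2490 and 2180 CPM with HME, and these values overlapped. In Ls174 cells it took 2130, 1930 and 1970 CPM in the controls and 2490, 2610 and 2550 CPM with HME, all treated libraries above all controls. The 16 mitochondrial genes together took 485, 663 and 446 CPM in the HepG2 controls and 367, 391 and 398 CPM with HME, all lower. In Ls174 cells their sums were 418, 465 and 479 CPM in the controls and 526, 477 and 492 CPM with HME. The ratio of the cytosolic to the mitochondrial sum was 4.1 ± 0.76 in untreated and 6.07 ± 0.51 in treated HepG2 cells, and 4.45 ± 0.56 in untreated and 5.13 ± 0.37 in treated Ls174 cells (SD, n = 3). It did not overlap between the HepG2 groups, where it was 3.53 to 4.96 against 5.48 to 6.37, and it overlapped in Ls174 cells. The sums weight abundant genes such as DARS in the cytosolic set and IARS2 and VARS2 in the mitochondrial set, and they were not tested. The median level over the 16 mitochondrial genes within each library was 25.9, 23.5 and 20.9 CPM in the HepG2 controls. With HME this median level was 27.1, 23.9 and 21.2 CPM, so it was not lower as the sum was. It can fall on different genes in different libraries and does not follow any gene through treatment. Gene by gene, the median log2 fold change was −0.435, with 6 of 14 tested genes above 0.

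**Figure D3:**
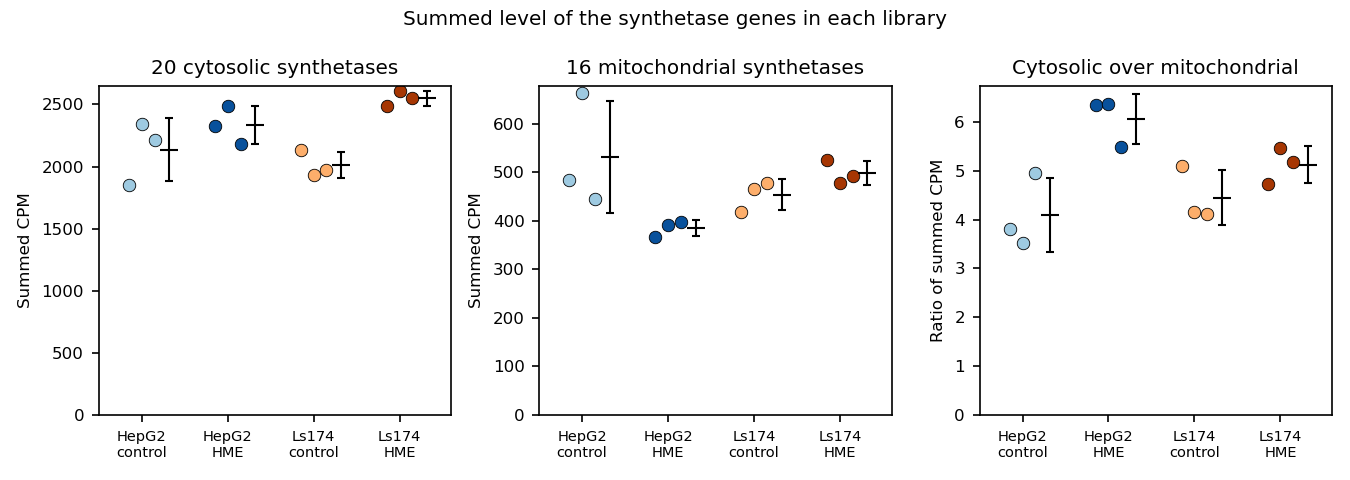
Summed CPM of the 20 cytosolic members (left), of the 16 mitochondrial members (middle) and the ratio of both sums (right) in each of the 12 libraries; points are libraries, bars the mean ± SD of 3, and each axis starts at 0. The mitochondrial sums of treated HepG2 cells (367 to 398 CPM) lie below all HepG2 controls, and the cytosolic sums of treated Ls174 cells (2490 to 2610 CPM) lie above all Ls174 controls.

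The members with the promoter motif shown above were compared with the other members that had a promoter entry, as a description. In HepG2 cells the 7 cytosolic members with the motif had a median log2 fold change of 0.92 (range −0.50 to 1.61), and 4 were called higher, against 11.3% of all tested genes. The 9 without it had a median of 0.19 (−0.26 to 0.56), and 0 were called in edgeR. Without HepG2 control 2, SARS (0.90 ± 0.34) and FARSA (0.85 ± 0.27) among these 9 were called higher, against 14.1% of all genes. GARS, CARS, MARS and TARS, which hold the motif, were also called higher without that library. In Ls174 cells the medians were 0.53 (−0.05 to 1.07; 3 called higher) and 0.39 (−0.39 to 1.00; 1 called higher, WARS), against 4.11% of all tested genes. AARS, which charges alanine, carried the motif and was at −0.50 ± 0.40 in HepG2 and −0.05 ± 0.35 in Ls174 cells. Its levels were 82.8, 206 and 110 CPM in the HepG2 controls and 237, 114 and 90.6 CPM in the Ls174 controls, highest in both libraries that stood apart. Without HepG2 control 2 its log2 fold change was 0.04 ± 0.24, and without Ls174 control 1 it was 0.49 ± 0.17, not called in either case.

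Other genes of the same pathways are given for context, to be read against the shares of all tested genes called higher and lower (11.3% and 10.9% in HepG2, 4.11% and 7.85% in Ls174 cells) and passing an adjusted p under 0.05 in edgeR (3.31% and 1.18%). Of 18 genes of the ATF4 amino acid response other than synthetases, 12 of 17 tested were called higher and 0 lower in HepG2 cells, with a median log2 fold change of 1.15, and 5 passed an adjusted p under 0.05 in edgeR. In Ls174 cells 9 of 18 were called higher and 2 lower, with a median of 0.82, and 1 passed. In HepG2 cells the lowest p-values belonged to DDIT4, an inhibitor of mTORC1 signalling (2.64 ± 0.42), SLC7A11, the cystine transporter (2.02 ± 0.33), SLC3A2, its partner chain (1.44 ± 0.28), and STC2, a secreted glycoprotein (2.38 ± 0.47). In Ls174 cells DDIT4 (2.06 ± 0.33; edgeR adjusted p = 0.0344), the pseudokinase TRIB3 (1.12 ± 0.25) and SESN2, a leucine sensor (1.05 ± 0.24), were higher, and SLC7A5, a transporter of large neutral amino acids, was lower (−2.11 ± 0.48). Among 7 eIF2 alpha kinases and phosphatase subunits, PPP1R15A, the stress-induced phosphatase subunit, was called higher in both lines (3.83 ± 0.82 in HepG2 and 1.14 ± 0.45 in Ls174 cells). PPP1R15B, its constitutive counterpart, was higher in HepG2 cells (1.77 ± 0.44), and the kinase EIF2AK3 was lower in Ls174 cells (−1.27 ± 0.31).

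Of 11 other genes of tRNA charging and proofreading, 3 were called higher in HepG2 cells, namely YRDC, which makes a tRNA modification (1.26 ± 0.30), the peptidyl-tRNA hydrolase PTRH2 (1.13 ± 0.33) and the D-aminoacyl-tRNA deacylase DTD1 (0.92 ± 0.41). None of the 11 was called in Ls174 cells in edgeR, where 1 had an unadjusted p under 0.05. Of the genes of tRNA maturation and export, 1 of 17 tested was called higher and 3 lower in HepG2 cells, among them the subunits RPP40 (0.92 ± 0.33), POP5 (−1.09 ± 0.37) and RPP14 (−0.93 ± 0.41) of RNase P, which trims the 5′ end of tRNA precursors. In Ls174 cells 1 of 19 was called, the RNase P subunit RPP21 (1.21 ± 0.28). Of 6 tested cytosolic elongation factors none was called or had an unadjusted p under 0.05 in edgeR in either line. Of 11 mitochondrial translation factors 1 was called, the release factor MTRF1L in HepG2 cells (0.77 ± 0.31).

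The counts of a member came mostly from 1 of its 3′ regions. In 33 of the 38 members the largest region held 90% or more of the counts, and the lowest share was 60.7%, in QARS. These regions were 232 to 2554 bases wide, 27 of them were made up by at least 50% of annotated UTR, and 23 reached past the annotated end of the gene (GENCODE, GRCh37). A further region with at least 10% of the counts was found in QARS (31.4%), VARS (25.1%) and EPRS (21.4%). The share of member counts outside the largest region was 3.77% in HepG2 control 2 and 4.8% in Ls174 control 1, and 6.43% to 10.4% in the other 10 libraries. Over all tested genes the same shares were 5.0% and 4.26%, and 5.89% to 8.28% in the others.

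**Figure D4:**
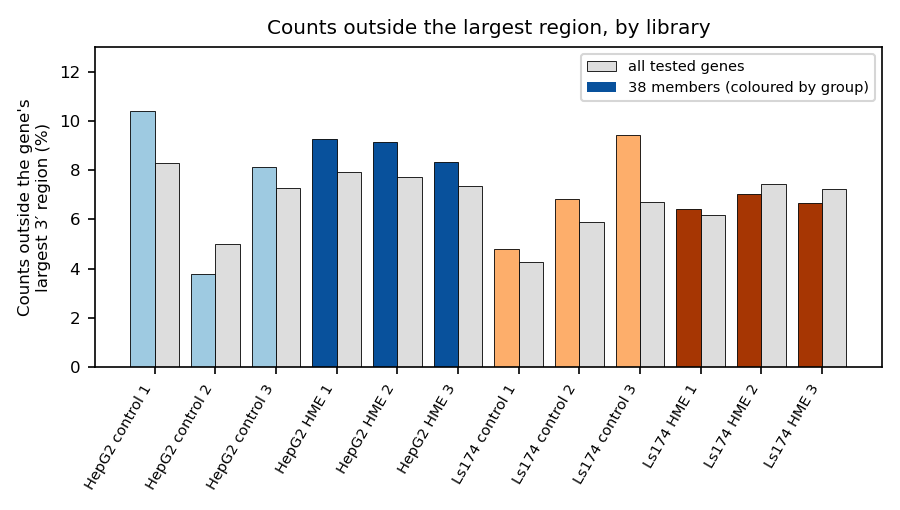
Percent of counts outside the gene's largest 3′ region in each of the 12 libraries, for the 38 members (coloured by group) and for all tested genes (grey); bars start at 0. HepG2 control 2 (3.77%) and Ls174 control 1 (4.8%) are the lowest libraries for the members.

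Some regions overlap those of other genes. The region of MARS (chr12:57909703-57910635, plus strand, GRCh37) shares 462 of its 933 bases with a region of DDIT3, a gene of the ATF4 response on the opposite strand. The region of AIMP2 (chr7:6063323-6063662, plus strand, 340 bases) lies wholly inside a region of EIF2AK1 on the opposite strand, whose count was below that of AIMP2 in several libraries (163 against 416 in Ls174 HME 1), so the counts of the files were assigned by strand. HARS, YARS and IARS2 also overlap a gene on the opposite strand that had counts. SARS2 shares its region with CTC-360G5.8 on the same strand, which holds the identical total of 902 counts, so the values of SARS2 are uncertain.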

How the data were processed

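RNA of 12 cultures was sequenced on an Ion Proton instrument after QuantSeq 3′ library preparation. The authors aligned reads to hg19 (GRCh37) with Hisat2 at default settings and counted them with metaseqR2; their processing notes also name Bowtie2 and Trimmomatic. The deposited tables hold raw counts per 3′ region (144910 regions, whole numbers). Versions, the strand setting and the treatment of reads with several alignments are not given in the sources used here.

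Region counts were added up per gene. Regions listed under several genes (342) stayed with each. Tests used edgeR 4.0.16 in R 4.3.3 (TMM, filterByExpr, quasi-likelihood F test) over all genes, with 6 libraries per line, 6 untreated libraries, or all 12 for the interaction, and Benjamini-Hochberg adjustment over all tested genes. The SE was derived from the F statistic. Alternatives were DESeq2 1.42.0, a binomial test, other scalings and filters, the largest region alone, the replicate block and leaving out each library. The fits were tested on simulated data. Tables were made with pandas 2.3.3 and numpy 2.4.6 and figures with matplotlib 3.10.9 in Python 3.11.15.

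The members and gene lists were chosen with earlier results of these data known. Values in every library are given for members called in either line or in the interaction, and for further members where a sentence turns on them, which were picked after their values were seen; of other lists, at most the 4 called genes with the lowest p per line are named, and 1 of these is not reported here. Same-numbered control and HME libraries did not deviate together (correlations −0.15 to 0.073), so the replicate number was not used as a block in the main fits. With 3 libraries per group these correlations cannot settle whether the libraries were paired. The floor covers counting error only, since the reads carried no molecular identifiers used here.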

Additional observations from a re-analysis of the deposited data

Results flagged for a closer look

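The interaction of line and treatment was called in 3 of the 38 members, RARS2, WARS and EARS2, against 13.2% of all genes. The log2 fold change in Ls174 cells exceeded that in HepG2 cells by 1.78 (edgeR adjusted p = 0.159), 1.25 (0.234) and 1.02 (0.301) in these, and none passed the adjusted threshold. SARS2 was not called, and is listed because its libraries moved in opposite directions. Its difference was 1.34 ± 0.65 (SE; edgeR adjusted p = 0.396) and missed the threshold: every treated HepG2 library (22.4, 28.1 and 23.3 CPM) lay below its controls (31, 35.3 and 32.5 CPM), and every treated Ls174 library (31.1, 35.7 and 35.3 CPM) lay above its controls (3.42, 22.2 and 27 CPM). Without Ls174 control 1, whose SARS2 level was the lowest, the difference was 0.88 and was called (adjusted p = 0.246), and the counts of SARS2 cannot be told apart from those of the overlapping CTC-360G5.8.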

How the results depend on the processing

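CARS and RARS2 in HepG2 cells and CARS, GARS, MARS, WARS and AIMP2 in Ls174 cells were called under each of 16 alternatives, and none of the 15 results called at first (7 in HepG2, 5 in Ls174 and 3 in the interaction) changed direction under an alternative. Among members not called, the log2 fold change turned sign in 4 without HepG2 control 2 (AARS 0.04, FARS2 0.09, KARS 0.28 and WARS 0.21) and in 2 without Ls174 control 1 (AARS 0.49 and KARS 0.09). In HepG2 cells, MARS, TARS and YARS2 each lost their call in 3 alternatives, VARS2 in 7 and GARS in 1. In the interaction, WARS and RARS2 were called in all 20 alternatives and EARS2 in 18.

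The study's methods name a binomial test, and the one used here was run anew on summed counts, without a term for replicates. It is not the study's own run, and its counts are not those of the study. It called 13 members in HepG2 (8 mitochondrial) in place of 7 (3), and 10 in Ls174 (5 mitochondrial) in place of 5 (0). Between the untreated lines it called 21 in place of 12. Its shares of all genes in these comparisons were 43.9%, 23.3% and 58.6%, respectively. With no filter beyond 1 count, 10 members were called in Ls174 (4 mitochondrial), against 10.4% of all genes. In the interaction 7 were called under that setting in place of 3, against 8.71%. DESeq2 called 6 in the interaction, against 14.7% of all genes, and upper-quartile scaling 5, against 13.7%. Library-size scaling called 4 members in HepG2, 2 of them cytosolic, against 22.8% of all genes. By an adjusted p under 0.05 in edgeR, the counts were 0 in HepG2 (0 cytosolic, 0 mitochondrial), 1 in Ls174 (cytosolic), 6 between the untreated lines and 0 in the interaction.

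The HepG2 median log2 fold changes moved to 0.19 (library size) and 0.31 (upper quartile) in the cytosolic set. In the mitochondrial set they moved to −0.58 (library size), −0.50 (upper quartile), −0.49 (no filter), −0.50 (mean count of at least 10) and −0.52 (1 fit of all 12 libraries).

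Leaving out 1 library at a time gave 2 to 9 members called in HepG2 (1 to 7 cytosolic, 1 to 4 mitochondrial), 5 to 8 in Ls174 (4 to 5 cytosolic, 0 to 2 mitochondrial), 5 to 11 between the untreated lines and 3 to 7 in the interaction. The count between the untreated lines fell from 12 to 7 (2 higher, 5 lower) without HepG2 control 3 or Ls174 control 3 and to 5 (0 higher, 5 lower) without Ls174 control 2. That of Ls174 rose to 8 without Ls174 control 3. In the interaction it rose to 6 without HepG2 control 1, 5 without HepG2 control 2 or 3 or Ls174 control 1, and 7 without Ls174 control 3. The medians were 0.24 to 0.45 and −0.49 to −0.22 in the cytosolic and mitochondrial sets of HepG2, and 0.40 to 0.47 and 0.32 to 0.47 in those of Ls174.

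Whether same-numbered libraries were paired is not given in the sources used here, and the replicate number was not used as a block in the main fits. With the replicate number as a block, 6 members were called in HepG2 (4 cytosolic, 2 mitochondrial), 6 in Ls174 (5 cytosolic, 0 mitochondrial), 8 between the untreated lines and 5 in the interaction, and the medians were 0.44 and −0.43 in HepG2 and 0.45 and 0.39 in Ls174. The cause of these shifts was not tested. With 3 libraries per group and mean counts down to 18.6, differences in PARS2, AARS2, NARS2 and TARS2 rest on few counts.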
